A study of Mus musculus with 6 samples.

Results

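Genes of the mitotic spindle, the kinetochore and the spindle checkpoint were examined in lung RNA of mice lacking Carm1, an arginine methyltransferase that acts as a transcriptional coactivator. The 54 genes were chosen by name, as mitotic kinases, cyclins, kinetochore proteins, kinesins and their partners, and every probe set (a group of short probes on the array that is read as 1 value) whose gene symbol or older alias was among them was taken. Of these genes, 53 matched 122 probe sets, out of 18161 genes with a probe set of a single symbol. Ccnb1 was matched to none and was not analysed here. The filter on low signal was passed by 52 of the 53. The kinesin Kif15 did not pass it, with signals of up to 31.2 on the wild-type arrays and of 6.40 to 28.4 on the knockout arrays. Each gene was represented by its probe set of highest mean signal. For 11 of the 52, namely Cdc25c, Bub3, Aurkb, Cdca8, Incenp, Kif2c, Kif22, Prc1, Cdc20, Pttg1 and Ncaph, this was a type that may also bind related transcripts.

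The series held 6 Affymetrix arrays of total lung RNA, 3 labelled Carm1 knockout and 3 labelled wild type. The design text places both genotypes at embryonic day 18.5, as do the knockout labels, whereas the wild-type labels say neonatal, so genotype and a possible difference in age cannot be told apart. The strain, the kind of knockout allele, pooling and litter are not given in the sources used here, nor whether the samples came from separate animals, so p-values measure only the spread between these samples. The arrays are called wild type 1 to 3 and knockout 1 to 3 after their labels. In RNA of whole lung, fewer or more dividing cells and less or more RNA per cell cannot be told apart.

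In a dividing cell, Cdk1 bound to cyclins A and B drives entry into mitosis, condensin compacts the chromosomes, and kinetochores built on the centromeres attach them to the spindle. Checkpoint proteins delay anaphase until the kinetochores are attached, after which the anaphase-promoting complex with Cdc20 marks cyclin B and securin for destruction and the sister chromatids part. Most of these genes are transcribed late in the cell cycle, so that in a tissue their transcripts follow the share of cycling cells, which is high in the growing fetal lung and low in the adult organ.

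The arrays differed in ways other than genotype. By their sex-linked transcripts, wild type 3 and knockout 2 came from males and the remaining arrays from females. Bacterial control RNA, which can be added before labelling, gave a median signal of 615 on wild type 1 and 451 on wild type 3, and between 2.40 and 10.6 on the other 4 arrays. Lung epithelial markers were present on all arrays, with a summed signal of 161417 to 218707 in wild type and 144683 to 176001 in knockout. Of these 11 markers 7 were lower in knockout and 4 were higher. Without overlap, the type I cell genes Aqp5 (log2 −1.72) and Ager (log2 −0.55) were lower and Epcam (log2 0.32) was higher. Of the 11, 0 had an adjusted p under 0.05 in limma, and their part in the mitotic signals was not tested. The ratio of 3' to 5' signal of the beta-actin control, a sign of RNA length, ran from 1.56 to 1.66 in wild type and from 1.57 to 1.75 in knockout, and that of the Gapdh control from 0.80 to 0.91 and from 0.82 to 0.91. Transcripts of neighbouring tissues were uneven. The 5 matched liver genes of 6 listed (albumin, alpha-fetoprotein and others) summed to 4298, 107971 and 179 on wild type 1 to 3 and to 148421, 3625 and 16577 on knockout 1 to 3, with none at 0. The 6 heart muscle genes summed to between 4427 and 15528 in wild type and to 12723, 43743 and 17864 in knockout. The 5 skeletal muscle genes summed to between 325 and 2905 in wild type and to 843, 1614 and 26677 in knockout. Liver RNA was thus high on wild type 2 and knockout 1, heart RNA on knockout 2 and skeletal muscle RNA on knockout 3. The 7 matched thymocyte genes of 8 listed, which would mark another tissue of rapid division, were all under the filter, with sums between 78.8 and 216 over the 6 arrays.

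Carm1 itself, the gene removed, had a lower signal in knockout on every array. It had signals of 814, 678 and 865 in wild type and 395, 374 and 511 in knockout, so the groups did not overlap. The log2 difference was −0.89 (SE 0.16, adjusted p = 0.105 with limma). Its probe set may also bind other transcripts, and no label says whether it lies inside the deletion, so it checks the labels only in part.

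Mitotic genes were higher in the knockout lungs as a group, by about 1.5-fold, but no single gene passed the test. Of the 52 tested members 49 had a higher mean log2 signal in knockout and 3 had a lower one, with a median difference of 0.62 on the log2 scale, a ratio of 1.54. Over all 27022 tested probe sets 52.7% had a difference above 0 and the median was 0.019. With limma and Benjamini-Hochberg adjustment over all tested probe sets 0 of the 52 had an adjusted p under 0.05, where 8 of all probe sets did, a share of 0.0296% (0.0037% for those higher in knockout). The adjusted p of the members ran from 0.149 to 0.783. At an unadjusted p under 0.05, 33 of the 52 were higher, against a share of 7.32% of all probe sets, and 1 was lower, against 6.31%. All 3 knockout arrays lay above all 3 wild-type arrays in 19 of the 52, against 10.7% of all probe sets, and below them in 1, against 9.36%. Counted like the members, with 1 probe set for each of 12936 tested genes, the shares were somewhat larger. Of these genes 54.6% had a difference above 0 and 12.6% had all knockout arrays above. At an unadjusted p under 0.05 in limma 9.15% were higher. An exact two-sided permutation test of a single gene cannot give a p under 0.1 with 3 against 3 arrays, and such a p was reached by 20 of the 52. The further 49 tested probe sets of these genes were higher in 45 cases and lower in 4, with a median of 0.55.

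**Figure D1:**
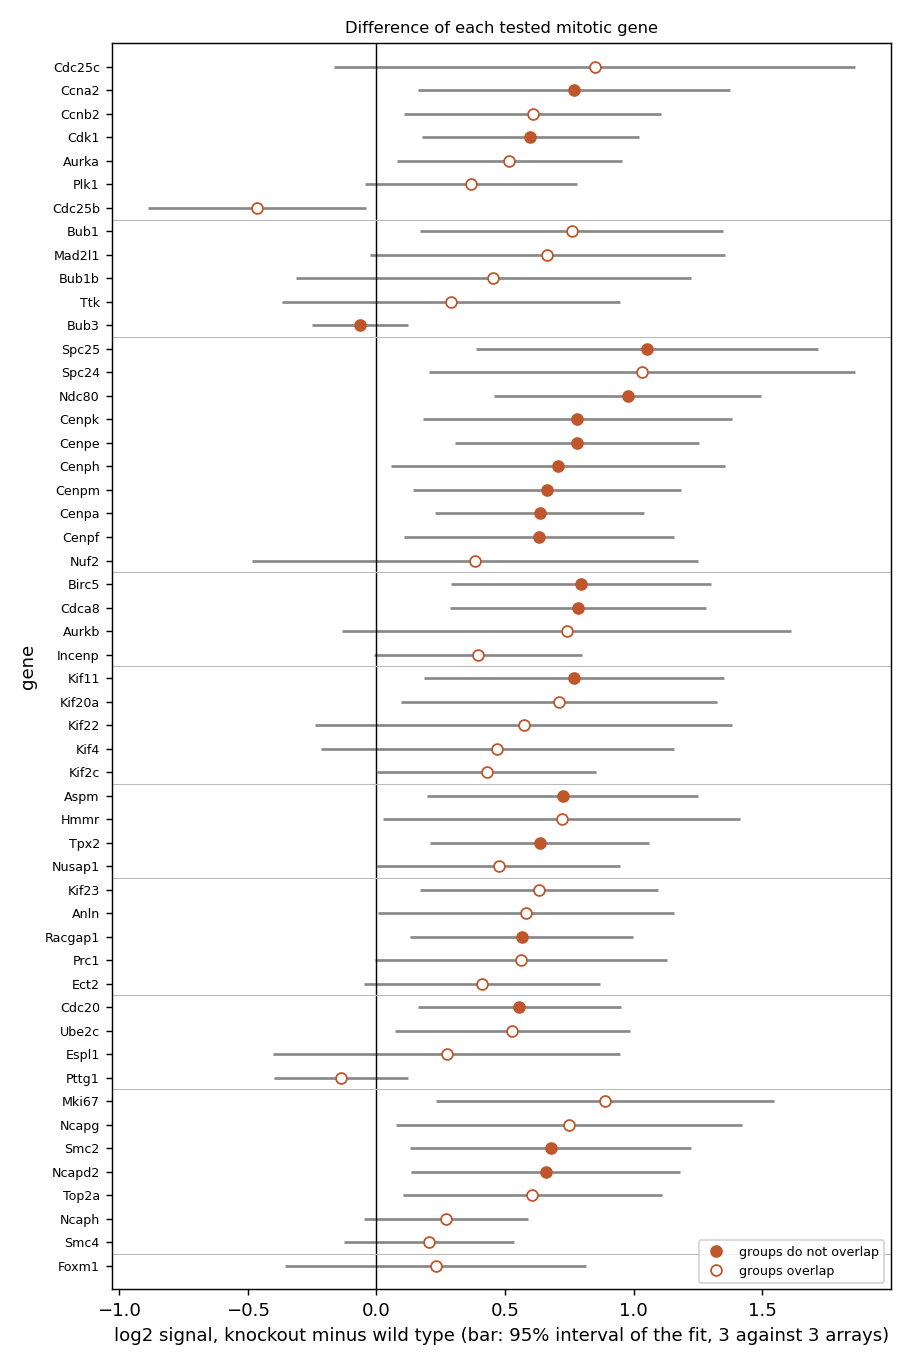
Difference of each of the 52 tested mitotic genes in log2 signal, knockout minus wild type, with the 95% interval of the limma fit over 3 against 3 arrays as a bar, ordered by role and then by size. Filled points mark genes whose groups do not overlap, and 49 of the 52 differences lie to the right of 0, between 0.21 and 1.05.

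The difference between the groups was uneven over the arrays. Of the 52 members 43 had their lowest signal on wild type 1, while knockout 1 held the highest signal for 25 and knockout 3 for 23. Wild type 2 and wild type 3 were alike, with a median difference of −0.034 on the log2 scale and wild type 2 higher in 22 of 52. Knockout 2 lay at their level, with a median difference of 0.0099 from wild type 2 (higher in 27 of 52) and a similarly small one from wild type 3. Against knockout 2, knockout 1 was higher in 50 of 52 genes (median 0.59) and knockout 3 in 49 (median 0.51). Wild type 1 lay below wild type 2 by a median of 0.58, with wild type 2 higher in 46 of 52 genes. The highest wild-type array was exceeded in 46 of the 52 genes by knockout 1, in 46 by knockout 3 and in 21 by knockout 2. On the mean over the 52 genes, each centred on its own mean over the arrays, wild type 1 to 3 stood at −0.67, −0.11 and −0.075 and knockout 1 to 3 at 0.49, −0.078 and 0.44, so knockout 2 lay within the wild-type range. One component held 85.7% of the variance of the 52 genes over the 6 arrays. The genes thus moved largely together and are not separate observations. Counts of genes beside shares of all probe sets describe these 6 arrays and are no test.

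**Figure D2:**
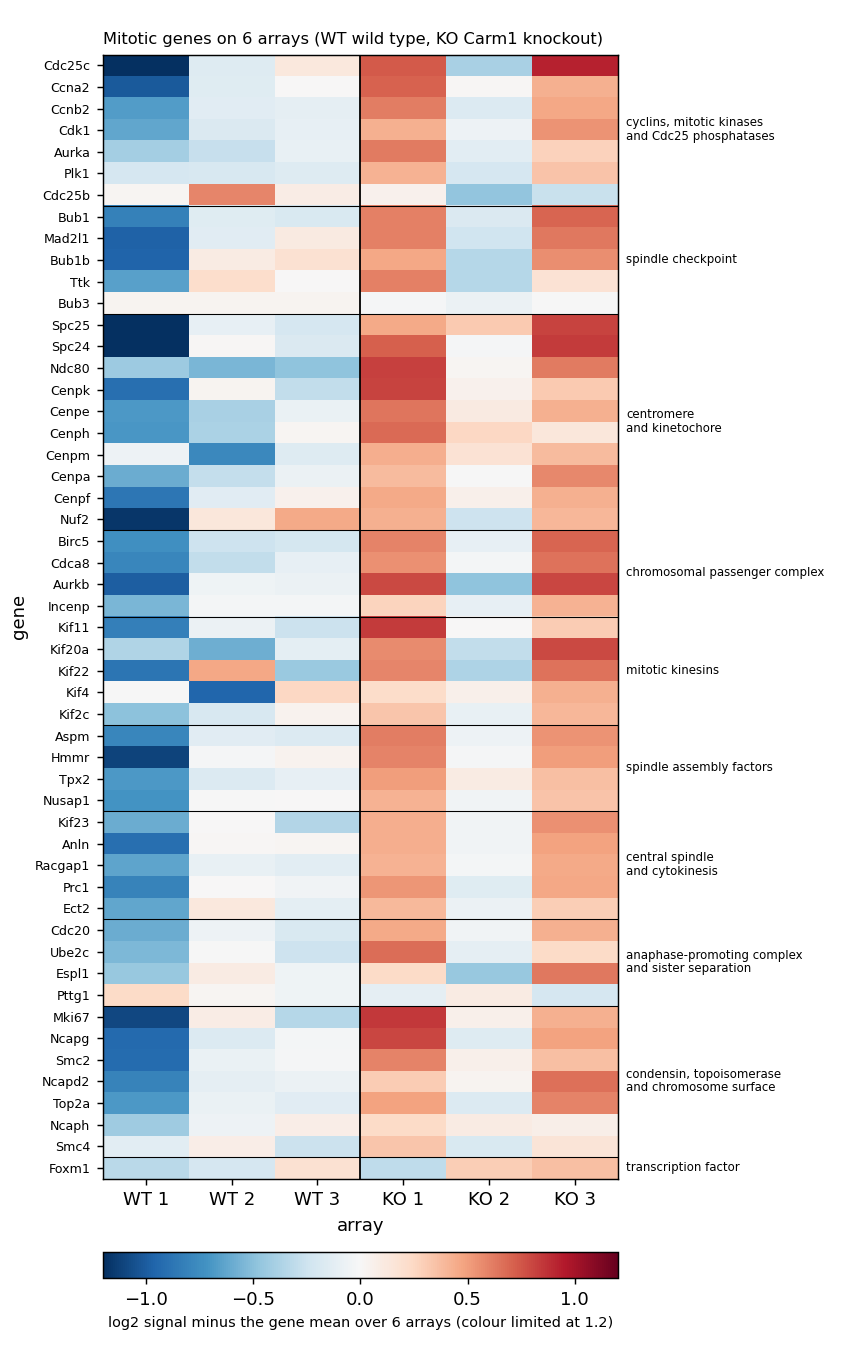
Log2 signal of the 52 tested mitotic genes (rows, grouped by role) on the 6 arrays (columns, WT wild type, KO Carm1 knockout), each gene minus its mean over the arrays, with colours limited at 1.2. Wild type 1 is the bluest column, with the lowest signal of 43 genes, knockout 1 and knockout 3 are red, and knockout 2 is as pale as wild type 2 and wild type 3.

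The median difference kept its direction when any 1 array was left out, between 0.42 without wild type 1 and 0.78 without knockout 2. The count of genes with an unadjusted p under 0.05 and a higher signal was 14 without wild type 1 (7.12% of all probe sets in the same fit), 13 without knockout 1 (6.7%) and 15 without knockout 3 (4.57%). The count of genes without overlap was 44 without knockout 2 (15.2% of all probe sets). Among the 4 arrays without bacterial control RNA, where wild type 2 alone stood for its group, 47 of 52 genes were higher, the median was 0.41 and 7 genes had an unadjusted p under 0.05, against 4.98% of all probe sets. The spread in that fit comes from the 3 knockout arrays only, and the single wild-type array is assumed to vary like them. Without wild type 2 and knockout 1, the 2 arrays of highest liver signal, the median was 0.61, 49 of 52 genes were higher, and 26 had an unadjusted p under 0.05 (6.18% of all probe sets). The part of liver, heart and skeletal muscle RNA in the mitotic signals was not tested. Among the 4 female arrays, a choice that leaves out the knockout array at wild-type level, the median was 0.92 and 47 of 52 genes did not overlap (21.3% of all probe sets). The males were 1 array of each genotype, knockout 2 and wild type 3, so there was no test between them. Their median difference was 0.029, with knockout 2 higher in 30 of 52 genes.

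**Figure D3:**
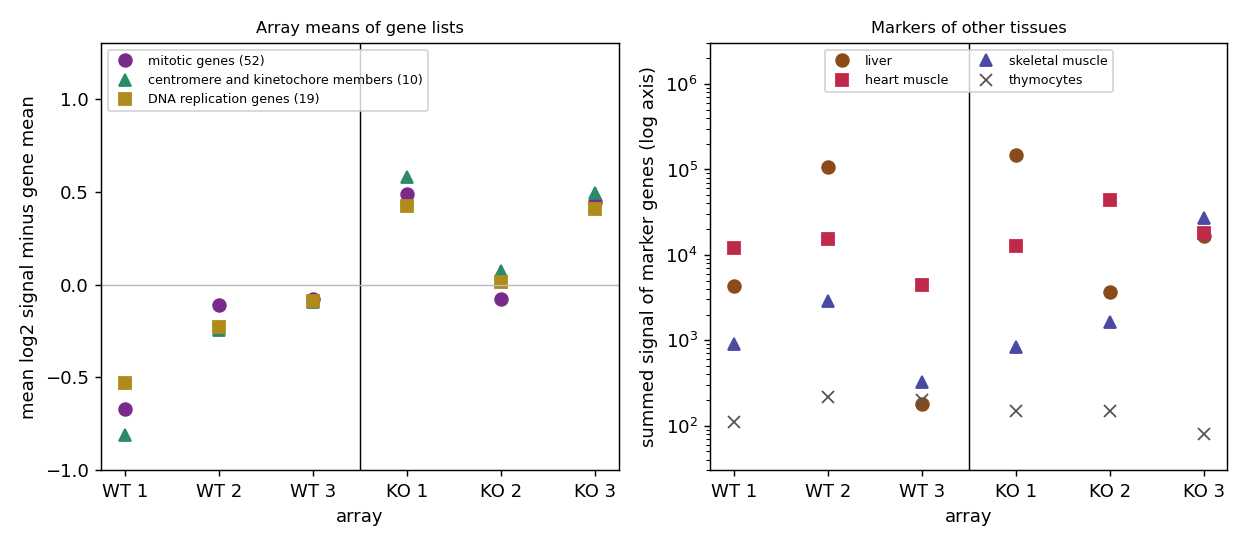
Left, mean log2 signal on each array, each gene minus its mean over the arrays, of the 52 mitotic genes (circles), the 10 centromere and kinetochore genes among them (triangles) and 19 DNA replication genes (squares). Right, summed signal of marker genes of liver, heart muscle, skeletal muscle and thymocytes on a log axis. Wild type 1 is lowest and knockout 1 and 3 highest on the left, and on the right liver signal peaks on wild type 2 and knockout 1.

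The promoters of the genes were read for the elements known from late cell cycle genes. The cell cycle homology region, TTTGAA or TTCGAA, is bound by the MuvB core of the DREAM and B-Myb complexes, and the CCAAT box by the trimeric factor NF-Y. RefSeq windows of 250 bases before to 50 bases after a transcription start (build GRCm38.p6) were matched to 45 of the 54 genes, 50 windows in all. Aurkb, Ccna2, Cdc25c, Foxm1, Incenp, Kif20a, Smc4, Spc24 and Tpx2 had no window matched. On either strand, TTTGAA or TTCGAA was found in 38 of the 50 windows (76%), against 19.2% of the 32851 windows of all genes. CCAAT was in 40 of the 50 (80%), against 37.4%, and in 2 or more copies in 25 (50%), against 11.7%. Both elements together were in 34 (68%), against 7.52%. TTCCCGC, an E2F element, was in 4 (8%), against 4.60%. Letters of different elements overlapped once in these windows. The first base of a cell cycle homology region lay at a median of 18 bases before the start, with 34 of 51 matches within 50 bases of it, and that of a CCAAT at a median of 74 bases before the start. In the 250 bases before the start alone, TTTGAA or TTCGAA was in 42% of the windows (17.1% of all) and CCAAT in 78% (33.8%). Of the 45 genes 31 held both elements, and Birc5, Mad2l1, Ncaph, Nuf2, Nusap1 and Pttg1 held neither in this window. A match of letters is a description and shows no binding.

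The 4 windows shown here belong to the genes of smallest p in limma among those that held both elements. That they share the elements comes from this choice, and a link between elements and signals was not tested. Each runs 5' to 3' on the strand of its gene, with the cell cycle homology region (TTTGAA in all 4) and the CCAAT box (CCAAT, read on either strand) in capitals.
Spc25 promoter, chr2:69206164-69206463, minus strand: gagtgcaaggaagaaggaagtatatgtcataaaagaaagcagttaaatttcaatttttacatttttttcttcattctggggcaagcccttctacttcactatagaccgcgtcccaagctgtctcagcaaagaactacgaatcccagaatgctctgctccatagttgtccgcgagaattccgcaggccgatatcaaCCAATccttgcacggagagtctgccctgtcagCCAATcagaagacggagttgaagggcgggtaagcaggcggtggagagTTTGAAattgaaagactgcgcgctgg
Cdca8 promoter, chr4:124936868-124937167, minus strand: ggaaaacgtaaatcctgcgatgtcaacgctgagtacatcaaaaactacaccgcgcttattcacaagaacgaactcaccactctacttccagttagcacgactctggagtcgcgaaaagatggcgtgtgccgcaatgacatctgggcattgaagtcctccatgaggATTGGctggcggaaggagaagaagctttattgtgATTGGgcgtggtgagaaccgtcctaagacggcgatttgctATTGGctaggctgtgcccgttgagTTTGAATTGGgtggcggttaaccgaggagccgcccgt
Cenpa promoter, chr5:30666636-30666935, plus strand: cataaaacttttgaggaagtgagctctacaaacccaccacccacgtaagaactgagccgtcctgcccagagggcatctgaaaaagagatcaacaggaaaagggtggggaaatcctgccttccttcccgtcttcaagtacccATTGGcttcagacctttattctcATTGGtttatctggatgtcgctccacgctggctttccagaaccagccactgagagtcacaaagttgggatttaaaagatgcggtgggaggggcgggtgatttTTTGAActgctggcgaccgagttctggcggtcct
Cdk1 promoter, chr10:69352863-69353162, minus strand: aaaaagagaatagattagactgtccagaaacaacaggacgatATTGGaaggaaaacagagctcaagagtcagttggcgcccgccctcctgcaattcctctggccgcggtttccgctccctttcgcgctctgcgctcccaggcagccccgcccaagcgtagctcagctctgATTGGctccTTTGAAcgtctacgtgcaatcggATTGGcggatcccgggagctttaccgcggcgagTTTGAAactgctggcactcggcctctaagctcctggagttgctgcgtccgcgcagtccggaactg
In the Spc25 and Cenpa windows the cell cycle homology region lies just after the start, in that of Cdk1 2 copies lie before it, and in that of Cdca8 it lies after the start and shares its last letter with a CCAAT box of the other strand.

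**Figure D4:**
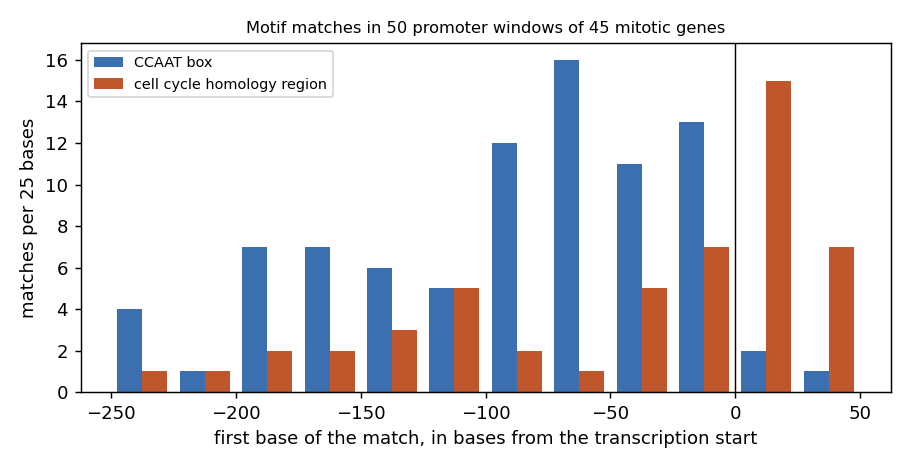
Number of matches per 25 bases of the CCAAT box (blue) and the cell cycle homology region (red) in the 50 promoter windows of 45 mitotic genes, by the distance of their first base from the transcription start at 0. The 51 matches of the cell cycle homology region gather around the start, with 34 within 50 bases of it, and the 85 CCAAT matches lie mostly before it. Sites in overlapping windows of the same gene are counted in each window.

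Genes of the centromere and kinetochore were higher in all 10 cases, with a median of 0.74, and were those for which knockout 2 most often lay above the wild-type arrays. All 3 knockout arrays exceeded all 3 wild-type arrays in 8 of the 10, against 10.7% of all probe sets. In 9 the signal was higher at an unadjusted p under 0.05 in limma, against 7.32%. For some of the 8 the margin was small, with knockout 2 at 820 against 814 on wild type 3 for Cenpf and at 544 against 535 on wild type 2 for Cenpk. Whether this class differed from the others was not tested, and it was singled out after its values were seen. Ndc80, the outer kinetochore protein that grips microtubules, had signals of 182, 168 and 176 in wild type and 433, 250 and 379 in knockout. The 3 wild-type arrays were nearly equal, wild type 1 included, and each knockout array was above them (log2 0.98, SE 0.23, 95% interval 0.46 to 1.5, adjusted p = 0.149 with limma). Spc25, of the same complex, was at 288, 649 and 607 in wild type and at 953, 868 and 1225 in knockout, the largest difference among the 52 genes (log2 1.05, SE 0.29, adjusted p = 0.193). Here wild type 1 was low, but knockout 2 also lay above the other wild-type arrays. Cenpe, a kinesin that moves chromosomes to the spindle equator, had signals of 223, 275 and 340 in wild type and 561, 388 and 484 in knockout (log2 0.78, adjusted p = 0.183). Its second tested probe set was higher as well, by 0.89. Cenpa, the histone H3 variant that marks centromeres, was at 859, 1068 and 1233 against 1688, 1296 and 1937, without overlap (log2 0.64, adjusted p = 0.200).

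The remaining kinetochore genes ran from 0.38 to 1.03. Spc24, the partner of Spc25, was at 202, 533 and 468 in wild type and 870, 523 and 946 in knockout, so knockout 2 lay just under wild type 2. Cenpk, Cenpm and Cenph, of the inner kinetochore, and Cenpf, a large outer kinetochore protein, were higher by 0.78, 0.66, 0.71 and 0.63 with no overlap. Nuf2, which pairs with Ndc80 in the same complex, had signals of 247, 609 and 758 in wild type and 744, 466 and 729 in knockout, and these groups overlapped widely (log2 0.38, SE 0.38, 95% interval −0.48 to 1.25). Without wild type 1 the difference of Nuf2 was −0.10.

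**Figure D5:**
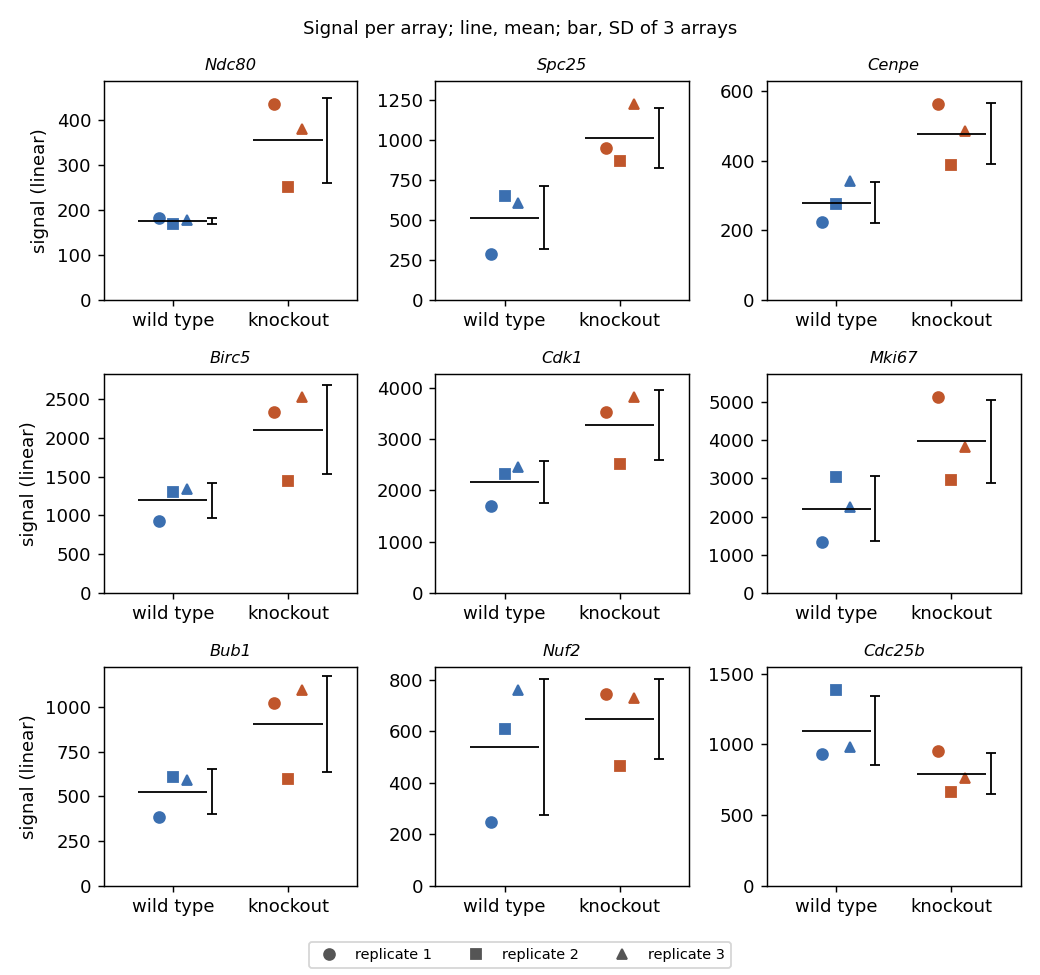
Signal on each array of 9 mitotic genes on linear axes that start at 0, with circles, squares and triangles for replicates 1, 2 and 3, the mean as a line and the SD of 3 arrays as a bar. Ndc80, Spc25 and Cenpe are above the wild-type arrays on all 3 knockout arrays, the knockout 2 square of Birc5 and Cdk1 lies close to wild type, Nuf2 overlaps, and Cdc25b is lower on average in knockout.

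The chromosomal passenger complex, which corrects faulty attachments and then guides cytokinesis, was higher in all 4 genes with a median of 0.76. Birc5, which encodes survivin, had signals of 932, 1305 and 1344 in wild type and 2339, 1446 and 2522 in knockout, without overlap (log2 0.79, SE 0.22, adjusted p = 0.198). Cdca8, the borealin subunit, was at 657, 925 and 1061 against 1659, 1115 and 1780 (log2 0.78, adjusted p = 0.198). In both, knockout 2 lay only slightly above the highest wild-type array, while knockout 1 and 3 were well above it. Incenp, the scaffold of the complex, was at 1184, 1701 and 1696 against 2085, 1618 and 2304 and overlapped (log2 0.40), and its 3 further probe sets were higher by 0.76, 0.71 and 0.45. The kinase Aurkb was at 145, 277 and 275 against 499, 206 and 503, with knockout 2 below wild type 2 and 3 (log2 0.74, SE 0.38).

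Cyclins, mitotic kinases and Cdc25 phosphatases were higher in 6 of 7 tested genes, with a median of 0.60. Cdk1, the kinase of mitotic entry, had signals of 1699, 2329 and 2453 in wild type and 3522, 2511 and 3817 in knockout (log2 0.60, SE 0.19, adjusted p = 0.235). Its cyclin partner Ccna2 was at 841, 1534 and 1695 against 2773, 1714 and 2275 (log2 0.77). For both the groups did not overlap, although knockout 2 exceeded the highest wild-type array by little. Ccnb2, a B-type cyclin, was at 898, 1293 and 1321 against 2175, 1273 and 1965 (log2 0.61) and overlapped. Aurka, a kinase of the spindle poles, was higher by 0.52, Plk1, a kinase of mitotic entry and exit, by 0.37, and the phosphatase gene Cdc25c, at the lowest signals of this class, by 0.85 with an SE of 0.45. Cdc25b, whose product is thought to start Cdk1 activation at the centrosome, had a lower mean in knockout. Its signals were 932, 1382 and 979 in wild type and 950, 661 and 765 in knockout, with overlap through knockout 1 (log2 −0.46, SE 0.19, unadjusted p = 0.0353 and adjusted p = 0.329 in the limma fit). It was the only member with an unadjusted p under 0.05 in the lower direction, and its difference ran from −0.60 to −0.29 when 1 array was left out and was −0.82 on the 4 arrays without bacterial control RNA.

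Spindle checkpoint genes were higher in 4 of 5, with a median of 0.46, and in none of them did all knockout arrays exceed all wild-type arrays. This median was 0.087 without wild type 1, 0.29 without knockout 3 and 0.74 without knockout 2. Bub1, a kinase that recruits checkpoint proteins to kinetochores, had signals of 383, 605 and 592 in wild type and 1023, 597 and 1093 in knockout (log2 0.76, adjusted p = 0.268). Mad2l1, which encodes the Mad2 inhibitor of Cdc20, was at 996, 1772 and 2101 against 2958, 1648 and 3026 (log2 0.66). Bub1b, which encodes BubR1, was at 229, 477 and 506 against 615, 352 and 659 (log2 0.46). In all 3 genes knockout 2 lay between wild type 1 and wild type 2, and knockout 1 and 3 lay above all wild-type arrays. A second probe set of Bub1b was higher by 0.55 with no overlap. The kinase Ttk, also called Mps1, differed by 0.29 with overlap, and by −0.067 among the 4 arrays without bacterial control RNA. Bub3, a checkpoint protein that is also made outside mitosis, was at 4332, 4312 and 4319 against 4173, 4024 and 4212. All knockout arrays were below, but the difference was only −0.063 (SE 0.082, 95% interval −0.25 to 0.12), and its other 2 tested probe sets differed by 0.0078 and 0.38.

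Mitotic kinesins were higher in all 5 tested genes, with a median of 0.57, or 0.90 without knockout 2. Kif11, the motor that pushes spindle poles apart, had signals of 232, 390 and 343 in wild type and 732, 413 and 508 in knockout without overlap (log2 0.77, adjusted p = 0.262), and its 2 other probe sets were higher by 0.84 and 0.61. Kif20a, a kinesin of cytokinesis, was at 357, 306 and 423 against 682, 374 and 794 (log2 0.71). Kif2c, which depolymerises microtubules at centromeres, was at 393, 483 and 569 against 697, 519 and 727 (log2 0.43). In the last 2 genes knockout 2 lay inside the wild-type range. Kif4, a kinesin of chromosome arms, and Kif22, which also binds chromosomes, were higher by 0.47 and 0.57 with overlap. For Kif22 wild type 2 was high at 2380, and among the arrays without bacterial control RNA its difference was −0.18. Further probe sets of Kif22 were higher by 0.77 and 0.35 with overlap, and on these wild type 2 lay below wild type 3.

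Spindle assembly factors were higher in all 4 genes, with a median of 0.68 (0.40 without wild type 1). All 4 had an unadjusted p under 0.05 in limma, against 7.32% of all probe sets in this direction. Tpx2, which activates Aurora A on the spindle, had signals of 347, 497 and 520 in wild type and 787, 596 and 716 in knockout (log2 0.64, SE 0.19, adjusted p = 0.215). Aspm, a spindle pole protein, was at 336, 526 and 517 against 885, 554 and 839 (log2 0.72, adjusted p = 0.244). Neither overlapped. Hmmr, another spindle protein, was at 282, 606 and 629 against 924, 603 and 864 and overlapped through knockout 2 (log2 0.72), and its 3 further probe sets were higher by 0.24, 0.22 and 0.78. Nusap1, which bundles microtubules near chromosomes, differed by 0.48. Of the 3 further tested probe sets of Tpx2, 2 were higher, by 0.67 and 0.94, and the third was lower by 0.66. The latter pair had low signals, with wild-type means of 57.7 and 81.2.

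The genes of the central spindle and cytokinesis were higher in all 5, with a median of 0.56, or 0.30 without wild type 1. Kif23, a motor of the centralspindlin complex, had signals of 383, 580 and 453 in wild type and 783, 563 and 849 in knockout (log2 0.63, adjusted p = 0.248). Its partner Racgap1 was at 412, 600 and 585 against 853, 629 and 872 without overlap (log2 0.56, adjusted p = 0.266). Anln, a scaffold of the contractile ring, was at 647, 1225 and 1231 against 1641, 1176 and 1692 (log2 0.58). In Kif23 and Anln knockout 2 lay inside the range of wild type. Prc1, which bundles the central spindle, and Ect2, which activates RhoA at the cleavage site, differed by 0.56 and 0.41 with overlap.

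For the anaphase-promoting complex and sister separation, 3 of 4 genes were higher with a median of 0.40. It was 0.25 without wild type 1 or without knockout 3, and 0.64 without knockout 2. Cdc20, the activator of the complex, had signals of 1964, 2847 and 2616 in wild type and 4056, 2875 and 3991 in knockout (log2 0.56, adjusted p = 0.237). A second probe set of Cdc20, singled out after its values were seen, had the smallest p of any member, with means of 1151 and 1879, no overlap and an adjusted p of 0.0955 in limma (log2 0.70). Ube2c, its ubiquitin-conjugating enzyme, was at 2175, 3135 and 2651 against 5032, 2922 and 3689 (log2 0.53). Pttg1, which encodes securin, the inhibitor of separase, was at 8714, 7562 and 7163 against 6883, 7960 and 6478. Its arrays overlapped (log2 −0.14, 95% interval −0.40 to 0.12), and wild type 1, lowest for most members, was here the highest. The other 2 probe sets of Pttg1 differed by −0.030 and −0.16. Espl1, separase itself, was at 192 ± 36.6 and 239 ± 85.3 (SD, n = 3) and overlapped.

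Genes of chromosome structure were higher in all 7, with a median of 0.66, or 0.41 without wild type 1. Mki67, the proliferation marker that coats mitotic chromosomes, had signals of 1340, 3035 and 2255 in wild type and 5127, 2971 and 3837 in knockout (log2 0.89, SE 0.29, adjusted p = 0.251). Knockout 2 was just under wild type 2, and without wild type 1 and 3, the arrays with bacterial control RNA, the difference was 0.35. Ncapd2, a subunit of condensin I, was at 345, 557 and 572 against 742, 613 and 948 (log2 0.66). Smc2, an ATPase of both condensins, was at 805, 1448 and 1521 against 2307, 1601 and 1968 (log2 0.68). Neither overlapped. Ncapg and Top2a, the topoisomerase that untangles sister chromatids, were higher by 0.75 and 0.61 with overlap. Ncaph and Smc4 differed by 0.27 and 0.21, with intervals from −0.048 to 0.59 and from −0.12 to 0.53. A second probe set of Ncaph was higher by 0.44 without overlap (adjusted p = 0.237 in limma). Further probe sets of Smc4 differed by 0.12 with overlap and by 0.29 without it.

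Foxm1 encodes a transcription factor that acts with MuvB at late cell cycle promoters. On its probe set of highest signal it did not show the array pattern of most members. Its signals were 139, 152 and 198 in wild type and 141, 214 and 224 in knockout, so knockout 1, among the highest arrays for the other genes, lay at the level of wild type 1. The difference was 0.23 with a 95% interval from −0.35 to 0.82, and its other 2 tested probe sets differed by 0.75 and −0.86. The former was at 36.0, 110 and 171 against 180, 106 and 170, with wild type 1 lowest as for most members and knockout 1 highest. The latter was at 117, 95.9 and 98.1 against 143, 10.2 and 124, also with knockout 1 highest. The probe sets of Foxm1 thus differed in array pattern.

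Mitotic genes outside the 54 were counted from further lists. Of 36 other genes of the spindle, cytokinesis and mitotic entry 35 were tested, and all 35 were higher, with a median of 0.50. In 16 of the 35 all knockout arrays lay above all wild-type arrays, against 10.7% of all probe sets. The smallest p of the 35 belonged to Cdca5 (sororin, which protects cohesin) and to the kinase Pbk (log2 0.82, adjusted p = 0.130 in limma). Cdca5 was at 367, 439 and 463 against 899, 623 and 799 (adjusted p = 0.121 in limma). Of 25 other kinetochore and centromere genes 22 were higher, with a median of 0.26, and 8 did not overlap, against the same 10.7%. These 25 were led by Kntc1 of the checkpoint complex RZZ (log2 1.14, adjusted p = 0.168 in limma). Next came Ska3, which helps Ndc80 hold microtubules (log2 1.35, adjusted p = 0.182 in limma). Condensin II had 2 of 3 higher, with Ncapg2 at 0.90 and Ncaph2 at −0.27. In none of these lists did a gene have an adjusted p under 0.05 with limma, while 19 of the 35, 7 of the 25 and 1 of the 3 were higher at an unadjusted p under 0.05, against 7.32% of all probe sets.

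Subunits of the anaphase-promoting complex, listed with its partners Fzr1 and Ube2s, and cohesin with its regulators were counted in the same way. The anaphase-promoting complex had 12 of 14 genes higher with a median of 0.098, and cohesin and its regulators 6 of 10 higher with a median of 0.065. Whether these lists differ from the mitotic genes was not tested. At an unadjusted p under 0.05 in limma, 0 of the 14 and 0 of the 10 were higher or lower. Over all probe sets 7.32% were higher and 6.31% lower, so a count of 0 in lists this short lies near those shares. In limma 0 of these genes had an adjusted p under 0.05. The 2 of smallest p were the Cdc20 homologue Fzr1 (log2 0.27) and the subunit Cdc23 (log2 0.19) for the former, and the cohesin releaser Wapl (log2 0.19) and Stag2 (log2 −0.14) for the latter. Of 19 tested genes for the MuvB, Myb, E2F and retinoblastoma proteins that control these promoters, 10 were higher and 9 lower, with a median of 0.15. Tfdp1, the partner of E2F, was higher by 0.39 and Rb1, the retinoblastoma gene, lower by 0.36, both without overlap and with adjusted p of 0.243 and 0.302 in limma.

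DNA replication genes, the nearest part of the cell cycle, had a median close to that of the mitotic genes. Of 19 tested genes 17 were higher, with a median of 0.58. All knockout arrays lay above all wild-type arrays in 13 of the 19, in 19 of the 52 mitotic genes and in 10.7% of all probe sets. At an unadjusted p under 0.05 in limma 17 of the 19 were higher, with 33 of the 52 mitotic genes and 7.32% of all probe sets. Whether these shares differ was not tested. On the mean of the replication genes knockout 2 stood at 0.015, above wild type 1 to 3 at −0.53, −0.23 and −0.090. The helicase subunit Mcm5 and the licensing factor Cdt1 had the smallest p (adjusted p = 0.108 and 0.136).

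Markers of other cell types also differed between the arrays. Of 9 matched erythroid genes 8 were higher in knockout, with a median of 1.40, and they summed to 9628, 21898 and 14558 in wild type and 33347, 14298 and 17008 in knockout, highest on knockout 1. Embryonic globin Hbb-y was at 351, 1383 and 447 against 11210, 2529 and 3026, while Alas2, of haem synthesis in red cells, was higher by mean in wild type (log2 −0.36). Of 7 mast cell and basophil genes 6 were higher, with sums of 3833 to 4622 in wild type and 5329 to 8357 in knockout, highest on knockout 2. Leukocyte markers had 4 of 8 higher and sums of 31803 to 45234 and 21145 to 33268. Of 7 endothelial markers 6 were lower and 1 higher, with sums of 17561 to 19827 and 12824 to 15329. All 6 were lower without overlap, against 9.36% of all probe sets. The same 6 had an unadjusted p under 0.05 in limma, against 6.31%. Of 4 mesothelial markers all 4 were lower, with sums of 6688 to 7850 and 3784 to 5552. Mesenchymal and smooth muscle markers summed to 57344 to 60970 and 58041 to 63591. The 2 matched neuroendocrine genes of 4 listed were under the filter. None of these lists had a marker with an adjusted p under 0.05 in limma, and their part in the mitotic signals was not tested.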

How the data were processed

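Lung RNA was measured on Affymetrix mouse whole-genome arrays. The authors' table holds 1 linear intensity per probe set and array, computed with MAS5 per the submitters' processing notes (version not given in the sources used here). With 2% trimmed from both ends the arrays shared a mean of 500, and no further scaling was applied. The number of arrays limits the precision. Symbols came from the platform annotation, brought up to date by gene ID with RefSeq names of GRCm38.p6. Of 45101 probe sets 34945 had 1 symbol, 932 several, 9160 none here, and 64 were controls. Probe sets with a mean log2 signal above the 40th percentile (59.7) were tested, 27022 in all.

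Log2 signals, with no pseudocount, were fitted with limma 3.58.1 in R 4.3.3 (lmFit, eBayes with an intensity trend, two-sided, Benjamini-Hochberg over all tested probe sets, threshold 0.05), knockout minus wild type. The fit was tested on simulated data. The members, lists and tests were chosen with earlier results of these data known. Values on every array are given for the 3 genes of smallest p in each role and for each gene lower in knockout, and from each further list the 2 of smallest p are named. Array values of Cenpa, Spc24, Nuf2, Aurkb, the further Foxm1 probe sets, the globin, Alas2 and the plotted genes were chosen beyond this rule after their values were seen. The alternatives were other scalings, filters, a pseudocount, variance models, choices of probe set, covariates and leaving out arrays. The fits on female arrays and without the arrays of highest liver signal were added after seeing the data.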

Additional observations from a re-analysis of the deposited data

How the results depend on the processing

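With 52 members tested in the main setting, no member reached an adjusted p under 0.05 in limma under any of the alternatives, the replicate block included, and the median difference stayed above 0 in all of them, from 0.41 with bacterial control RNA as a term to 0.92 on female arrays. The count of members without overlap, 19, became 10 with arrays scaled to a common median, where 6.72% of all probe sets lay above, and 47 on female arrays only. The count higher at an unadjusted p under 0.05, 33, became 5 with bacterial control RNA as a term (4.60% of all probe sets) and 7 on the arrays without it; both set wild type 2 alone against the knockout arrays and so are 1 contrast with different estimates of spread. Leaving out 1 array at a time gave 13 to 41 for that count, 19 to 44 for the count without overlap, 48 to 49 members higher, medians of 0.42 to 0.78 and 0 members with an adjusted p under 0.05 each time. Single genes turned sign as follows, and the cause was not tested. Bub3 was at 0.11 as a mean over its probe sets and at 0.0078 without _s_ or _x_ probe sets. Kif22 was at −0.18 and Ttk at −0.067, each on its probe set of highest signal. These values held both with bacterial control RNA as a term and on the arrays without it. Nuf2 ran from −0.10 to 0.71 when 1 array was left out.

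The replicate numbers were not used as pairs in the main fit. Deviations of same-numbered arrays from their group mean correlated at −0.14, −0.38 and −0.006. With 3 arrays per group, whose deviations depend on each other, these values cannot decide whether the samples were paired. With the replicate block 32 members were higher at an unadjusted p under 0.05 in limma (6.06% of all probe sets), and 0 probe sets in all had an adjusted p under 0.05. The count without overlap is taken from the array signals, so a term added to the fit cannot change it. Over all probe sets the count of 8 became 0 without an intensity trend or on female arrays, 0 over gene means, 40 with robust variance, 4 with sex as a term, 2 with bacterial control RNA as a term, 3 on the arrays without it, 58 without the arrays of highest liver signal and 0 to 13 when 1 array was left out. The share of promoters with TTTGAA or TTCGAA was 76% in 300 bases and 42% in the 250 bases before the start. The number of arrays and low signals limit single genes, with Cenph lowest at a wild-type mean of 102.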
